A study of Mus musculus with 20 samples.

Results

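The matrix metalloproteinases, ADAMs and TIMPs described here are 10 genes of a table of 53380 genes: *Mmp2*, *Mmp3*, *Mmp9*, *Mmp10*, *Mmp14*, *Adam8*, *Adam17*, *Timp1*, *Timp2* and *Timp3*. They were chosen by measured values: the family was selected on the normalized counts of its genes in the sorted populations, with earlier results of the same 20 libraries known. Their levels and differences are therefore a description, and no p-value is given for them. The values are RNA-seq normalized counts, that is, reads per gene divided by a size factor for each library, in 5 populations sorted from mouse dorsal epidermis. The Thy1hi cells (4 libraries, Thy1+ScaI+) and the Thy1- cells (4 libraries, Thy1-ScaI+) are basal keratinocytes of the interfollicular epidermis. The HFSCs (4 libraries, CD34+ScaI-) are hair follicle stem cells, and the DETCs (5 libraries, Thy1+ScaI-) are dendritic epidermal T cells, which reside in the epidermis and carry Thy1. The YFP+ cells (3 libraries, Thy1+YFP+) were sorted for the reporter of an inducible Cre line.

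Every sample is labelled with the genotype Thy1.2CreERT2-Rosa26-EYFP and as untreated, while the methods give wild-type C57BL/6J mice for the populations without reporter and induction by tamoxifen for the Cre line. In that line, Thy1 promoter sequences drive both CreERT2 and a YFP of their own. The cell type label of the YFP+ libraries reads ScaI- and their title does not. The series design gives mice of 8 weeks, whereas each sample carries its own age, from 8 to 27 weeks in steps of a week, so age and population cannot be told apart by the labels. The sources conflict on the mice behind a library, which are given as pooled in one place and as a number of mice per population in another, and replicate error here is that of libraries, not of known single animals. Libraries were made in separate batches that the labels do not assign to samples, and no within-batch value could be computed.

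Total reads on genes ran from 7781256 to 12982393 per library, with a median of 10707836, and 13.1% to 41.5% of them lay on the ribosomal gene *Rn45s*. Some libraries stood apart from their population. HFSC replicate 4 had 13.1% on *Rn45s*, against at least 38.3% in the other HFSC libraries, and a sum of 163.96 over 6 Langerhans cell markers against 2992 to 5968. DETC replicate a had a sum of 13347 over 7 basal keratinocyte markers, against 42007 to 58246 in the other DETC libraries, and the highest sum of T cell markers (44101 against 21784 to 29520). Lower shares on *Rn45s* than in their population were also found in Thy1hi replicate 3 (20.6%, the others at least 33.6%) and Thy1- replicate 3 (18.6%, the others at least 26.9%), and Thy1hi replicate 1 had the highest sum of fibroblast markers (2207, the others at most 1193). Where leaving out HFSC replicate 4 or DETC replicate a moved the fold of a named gene by over 1.5 times, the value without it is given. The labelled cell types were checked against their markers. All 8 T cell markers were higher in DETCs than in Thy1hi cells without overlap of libraries, and all 7 follicle stem cell markers were higher in HFSCs. Keratinocyte markers were present in the DETC libraries, at sums below the 71881 of the lowest HFSC library.

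Matrix metalloproteinases (MMPs) are zinc-dependent endopeptidases that cut collagens, laminins and other matrix proteins, and that are made as inactive precursors. ADAMs are membrane-anchored relatives, several of which shed the outer part of other membrane proteins, among them growth factors that keratinocytes use. TIMPs are secreted inhibitors that sit in the active site of these enzymes. In skin these proteins are best known for their part in the movement of keratinocytes over a wound and in the remodelling of the basement membrane. The differences below are limma estimates on log2(normalized count + 1) with their standard error (SE), a scale that understates the change of low genes. In sorted bulk samples, fewer cells of a type and less RNA per cell cannot be told apart.

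*Mmp3* and *Mmp10* encode the stromelysins, secreted proteases with a wide range of matrix substrates. They lie on chromosome 9 on the same strand, with *Mmp1a* between them. In GRCm38, *Mmp3* (ENSMUSG00000043613) runs from 7445822 to 7455975 and *Mmp10* (ENSMUSG00000047562) from 7502352 to 7510240. *Mmp3* and *Mmp10* moved together across the libraries, so the bases before their starts are shown. Of the 10 genes, 8 had an entry in the RefSeq promoter table (GRCm38.p6), and *Mmp2* and *Mmp9* had none. The 250 bases before the start are printed 5′ to 3′ on the strand of the gene for *Mmp3* (chr9:7445572-7445821, plus strand), for *Mmp10* (chr9:7502092-7502341, plus strand) and, as the gene with the highest level per kb in Thy1hi cells, for *Adam8* (chr7:139992563-139992812, minus strand). Capitals mark TGAGTCA, the consensus of AP-1, and TATAAA, the letters of a TATA box at whatever position, in the stromelysins. In *Adam8* they mark GGGCGG or its reverse complement, the letters of a GC box.
Mmp3: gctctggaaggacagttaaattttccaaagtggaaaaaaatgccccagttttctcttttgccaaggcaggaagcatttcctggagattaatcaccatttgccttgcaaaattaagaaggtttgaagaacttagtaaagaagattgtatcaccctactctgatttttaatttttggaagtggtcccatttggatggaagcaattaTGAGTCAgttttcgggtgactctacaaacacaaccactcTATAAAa
Mmp10: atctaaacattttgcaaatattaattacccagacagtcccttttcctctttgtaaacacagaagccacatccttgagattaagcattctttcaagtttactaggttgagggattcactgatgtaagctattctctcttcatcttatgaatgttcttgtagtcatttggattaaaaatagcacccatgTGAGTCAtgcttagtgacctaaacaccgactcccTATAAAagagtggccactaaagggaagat
Adam8: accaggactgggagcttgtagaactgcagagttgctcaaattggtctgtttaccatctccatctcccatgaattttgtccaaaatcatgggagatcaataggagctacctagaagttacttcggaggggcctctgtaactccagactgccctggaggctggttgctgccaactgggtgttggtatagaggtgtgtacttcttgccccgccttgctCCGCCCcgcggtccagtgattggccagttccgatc

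The search covered both strands, and the 3 motifs do not overlap one another in these windows. TGAGTCA was found in *Mmp3* from -46 to -40 and in *Mmp10* from -63 to -57 relative to the RefSeq start, which for *Mmp10* is the base after 7502341 and thus lies upstream of the start in the annotation given above, and in 4.46% of all 32851 windows of this length in the table. TATAAA was found from -7 to -2 in *Mmp3* and from -29 to -24 in *Mmp10*, and in 12.4% of all windows. The match in *Mmp3* lies nearer the RefSeq start than that in *Mmp10*, and whether it serves as a TATA box was not tested. Neither was found in the windows of the other 6 genes with an entry, all of which held GGGCGG or its reverse complement, as did 32.7% of all windows. The G and C content was 37.6% in *Mmp3* and 37.2% in *Mmp10*, and between 52.8% in *Adam8* and 70.4% in *Adam17* in the others, beside a median of 52.4% over all windows. A match is a description of the letters and no sign of binding.

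*Mmp3* stood highest in the reporter-marked cells, next in the Thy1hi cells, and low everywhere else. It had 162, 103, 78.9 and 125 normalized counts in the 4 Thy1hi libraries, against 24.3, 22.0, 7.10 and 16.4 in the Thy1- libraries. All Thy1hi libraries lay above all Thy1- libraries, and the log2 difference was 2.76 (SE 0.80), a 6.75-fold difference between the 2 populations. The YFP+ libraries had 451, 155 and 346, which overlapped the Thy1hi libraries at their low end, for a log2 difference of 1.34 (SE 0.86). HFSCs had 25.4, 7.60, 13.9 and 2.10, and the difference of Thy1hi cells from HFSCs was 3.498 (SE 0.80), or 2.93 (SE 0.81) without HFSC replicate 4. DETCs ran from 0 to 32.3 with a median of 12.2, and every DETC library lay below every Thy1hi library (log2 difference -3.54, SE 0.76). Replicate a, at 0, moved the 11.6-fold difference of DETCs, which was 6.54-fold (-2.71, SE 0.55) without it. The summed fibroblast markers ran from 419 to 2207 in Thy1hi, from 284 to 588 in YFP+ and from 242 to 383 in Thy1- libraries (7, 6 and 6 of 10 at a mean of at least 10, with *Lum* at 3 reads or fewer in the YFP+ and Thy1- cells), and their part in the *Mmp3* values was not tested. The 3 populations at the low end overlapped one another.

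*Mmp10* followed the same order at the top, at far lower counts. It had 33.9, 6.97 and 12.9 in YFP+ cells and 3.31, 13.2, 5.69 and 5.82 in Thy1hi cells, while 3 of the 4 Thy1- libraries had 0 and the other had 1.16. These are 26 reads over the Thy1hi libraries and 1 read over the Thy1- libraries, a ratio of 27.6 with a 95% interval of 4.54 to 1133 for counting error, and 56 reads in YFP+ cells gave a ratio to the same read of 70.8 (12.2 to 2844). HFSCs ranged from 0 to 6.93 and DETCs from 0 to 5.87, both overlapping Thy1hi cells. *Mmp10* passed the filter on low values (10 in at least 3 libraries) with exactly 3 libraries, all of them Thy1hi or YFP+, so the filter favours the populations in which it is high. The single transcripts of *Mmp3* and *Mmp10* in GENCODE were identical at 73.9% of 1819 aligned positions, with a longest shared run of 104 bases, and 5 of the 1623 windows of 100 bases of *Mmp10* also lay in *Mmp3*. A read length of 100 thus leaves 0.308% of the windows of *Mmp10* unable to tell the pair apart.

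*Mmp14* (chromosome 14 from 54431612 to 54445364) encodes a membrane-bound protease that cuts interstitial collagen at the cell surface and activates pro-MMP2. By its mean it was the most abundant of the 5 MMPs per kb of exon in 4 of the 5 populations. It had 115 ± 16.0 (SD, n = 4) normalized counts per kb in Thy1hi cells, 81.2 ± 25.1 (n = 4) in HFSCs, 77.0 ± 19.5 (n = 4) in Thy1- cells and 30.2 ± 12.2 (n = 5) in DETCs. Of the summed MMP level per kb in HFSC libraries, *Mmp2* held 21.8% to 55.6% and *Mmp14* 36.7% to 67.6%. *Mmp14* thus did not lead in every HFSC library. In YFP+ cells its 79.8 ± 16.2 per kb (n = 3) lay below the 176 ± 83.3 of *Mmp3*. Per library, Thy1hi cells had 816, 594, 688 and 641 normalized counts, Thy1- cells 615, 341, 414 and 464, and YFP+ cells 411, 429 and 587. The Thy1hi value was the higher in 4 of 4 same-numbered pairs, although the lowest Thy1hi library lay below the highest Thy1- library (log2 difference 0.60, SE 0.33). The lowest Thy1hi library lay just above the highest YFP+ library (log2 difference -0.53 for YFP+ against Thy1hi, SE 0.36). DETCs had 176, 247, 189.7, 60.4 and 227, below every library of every other population. The log2 difference of DETCs was -2.06 (SE 0.32) from Thy1hi cells and -1.51 (SE 0.32) from HFSCs, and -1.70 and -1.16 (SE 0.22 each) without DETC replicate a. Without HFSC replicate 4 the difference from HFSCs was -1.73 (SE 0.32). The summed basal keratinocyte markers of the DETC libraries were also below those of every other library (13347 to 58246 against 71881 to 269713), and the part of this in the DETC values was not tested.

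*Mmp2* (chromosome 8 from 92827291 to 92853420), a gelatinase that cuts basement membrane collagen, varied widely within the HFSCs. These had 127, 368, 375 and 75.0 normalized counts, Thy1hi cells 91.6, 79.0, 118 and 139, Thy1- cells 75.4, 123, 126 and 161, and YFP+ cells 49.8, 93.7 and 147. These 4 populations overlapped one another. DETCs had 68.5, 77.3, 68.0, 26.1 and 61.3, below every Thy1hi library (log2 difference -0.87, SE 0.43, and -0.60, SE 0.42, without replicate a), and 1.74 (SE 0.43) below HFSCs on the log2 scale, with a library of each overlapping. Without HFSC replicate 4, the HFSC difference grew to -2.18 (SE 0.41). The sum of 10 fibroblast markers was 1299 to 2595 in HFSCs and 242 to 383 in Thy1- cells, with 6 of the 10 at a mean of at least 10 in each, and *Lum* at 3 reads or fewer in Thy1- cells. *Col6a1* alone made up 664 to 1485 of the HFSC sums, and without it they were 554 to 1110 in HFSCs, 178 to 304 in Thy1- cells and 322 to 2041 in Thy1hi cells. The highest of these was in a Thy1hi library whose *Mmp2* value was 91.6. Within the HFSCs, the libraries with *Mmp2* at 127, 368, 375 and 75.0 had sums over all 10 markers of 1742, 2595, 2183 and 1299. Of the 9 list members that passed the filter, 6 were lower in Thy1- cells than in HFSCs (median log2 difference -0.36) and 3 were lower in Thy1hi cells (median 0.99), and their part in the *Mmp2* values was not tested.

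*Mmp9* (chromosome 2 from 164940780 to 164955850), a gelatinase that myeloid cells make in quantity, was low and overlapped in all pairs of populations. It ran from 6.50 to 27.2 in Thy1hi cells, from 8.92 to 63.5 in YFP+ cells, from 3.94 to 44.0 in Thy1- cells, from 0.70 to 68.1 in HFSCs and from 10.8 to 43.5 in DETCs. Its difference between Thy1hi cells and HFSCs was -0.01 (SE 0.92) with all libraries and 0.69 without HFSC replicate 1. It was -1.09 (SE 0.77) without HFSC replicate 4, which held 1 read of it. Among HFSCs, the same library had the lowest value of *Mmp2*, *Mmp3*, *Mmp9*, *Mmp14*, *Adam8*, *Timp2* and *Timp3*, beside the lowest sums of Langerhans cell markers (163.96) and myeloid markers (44.1 against 160.45 to 427). Whether those cells had a part in the values of the other HFSC libraries was not tested.

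**Figure D1:**
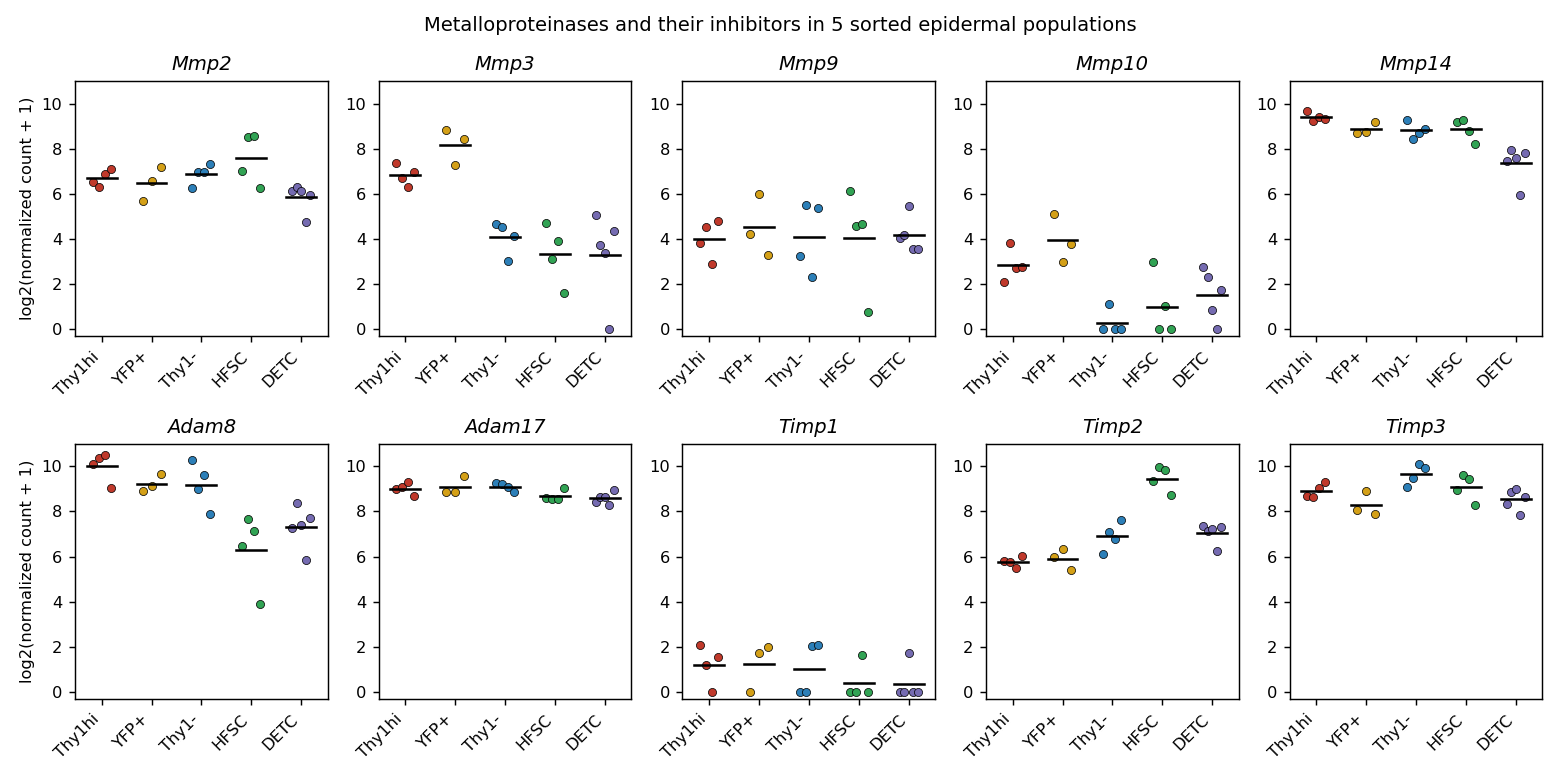
Level of each of the 10 genes in 20 libraries, as log2(normalized count + 1), by population on the horizontal axis; each point is a library and each bar the mean of the points. *Mmp3* and *Mmp10* are highest in YFP+ and Thy1hi libraries, *Timp2* in HFSCs, and *Timp1* stays at or below 3.31 normalized counts in every library.

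*Adam8* (ENSMUSG00000025473, chromosome 7 from 139978932 to 139992562) encodes a sheddase first known from leukocytes. Of the 10 genes it had the highest level per kb in Thy1hi cells, 237 ± 86.8 (n = 4), and it was far lower in HFSCs and in DETCs. Thy1hi cells had 1113, 1303, 1445 and 529.7 normalized counts, Thy1- cells 1228, 510.25, 789 and 234, and YFP+ cells 474, 559.65 and 814. These 3 populations overlapped one another, and Thy1hi cells lay 0.81 (SE 0.65) above Thy1- cells. In HFSCs the values were 86.6, 201, 138 and 14.0, below every Thy1hi and every Thy1- library. The log2 difference from HFSCs was 3.72 (SE 0.65) for Thy1hi cells and 2.91 (SE 0.65) for Thy1- cells, and 2.93 (SE 0.53) and 2.11 (SE 0.53) without HFSC replicate 4, so that 1 library moved the 13.2-fold difference of Thy1hi cells to 7.62-fold. DETCs had 155, 329, 168, 56.3 and 205, below every Thy1hi library (log2 difference -2.69, SE 0.61, and -2.32, SE 0.60, without replicate a), although they are leukocytes. They overlapped HFSCs (1.03, SE 0.61, and 0.24, SE 0.50, without HFSC replicate 4), and were the higher in 3 of 3 same-numbered pairs. The numbers were not shown to pair DETC with HFSC libraries.

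*Adam17* (chromosome 12 from 21323509 to 21373632), the sheddase of tumour necrosis factor and of several ligands of the EGF receptor, had the most even level of the 10 genes. Its means were 565 ± 174 (n = 3) in YFP+ cells, 552 ± 64.3 (n = 4) in Thy1- cells, 523 ± 90.5 (n = 4) in Thy1hi cells, 413 ± 72.8 (n = 4) in HFSCs and 388 ± 69.3 (n = 5) in DETCs, and each population overlapped the next. The lowest library had 307 and the highest 766. None of the 6 comparisons had a log2 difference beyond 0.43 in size. Of its windows of 100 bases, 2.69% lay in transcripts of *Iah1* on the opposite strand.

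*Timp1* (chromosome X from 20870166 to 20874735), an inhibitor known to be induced in wounded and inflamed skin, was close to absent. The 20 libraries together held 25 reads of it, 11 libraries had none, and the highest had 4. A library without a read allows up to 3 reads, or 2.10 to 4.12 normalized counts, so no difference between populations was detectable at this depth. It was the only 1 of the 10 genes that did not pass the filter, and 9 were tested.

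*Timp2* (ENSMUSG00000017466, chromosome 11 from 118301069 to 118355740) encodes the inhibitor that binds MMP14 at the cell surface and, in small amounts, bridges it to pro-MMP2. It was highest in HFSCs, which had 645, 996, 901 and 421 normalized counts, while the highest other library had 198. Thy1hi cells had 55.2, 52.7, 44.7 and 64.0, the Thy1- cells 69.3, 137, 108 and 198, and the YFP+ cells 61.8, 80.5 and 41.6. All Thy1- libraries lay above all Thy1hi libraries, and YFP+ cells overlapped both. DETCs had 160.5, 138, 146, 75.5 and 156, above Thy1hi cells without overlap. The log2 differences were -3.68 (SE 0.32) for Thy1hi cells, -2.55 (SE 0.32) for Thy1- cells and -2.42 (SE 0.31) for DETCs, each against HFSCs, and -1.14 (SE 0.32) for Thy1hi against Thy1- cells. Without HFSC replicate 4 the first 3 were -3.93, -2.79 and -2.66.

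Other values also differed between the populations. The summed markers of follicle stem cells were 7049 to 10942 in HFSCs, 2572 to 3142 in Thy1- cells and 1155 to 1806 in Thy1hi cells. They were 1155 to 2178 in YFP+ cells and 842 to 2039 in DETCs. All 7 markers were at a mean of at least 10 in each population. DETCs thus had lower sums than Thy1- cells, at a mean *Timp2* of 135 against 128. The sum of melanocyte markers was also highest in HFSCs by its median (866, with 4 of the 5 markers at a mean of at least 10), as was that of fibroblast markers only with *Col6a1* included (1962 against 912 in Thy1hi cells, and 691 against 777 without it). The sum of Langerhans cell markers was highest in HFSCs as well by its median, 3713 against 2501 in DETCs, 1826 in Thy1- cells, 1045 in Thy1hi cells and 869 in YFP+ cells, with all 6 markers at a mean of at least 10 in each population. The part of these cells in the *Timp2* values was not tested. *Cep295nl*, which lies inside *Timp2* on the same strand, had 64.8 ± 39.5 in HFSCs, 25.7 ± 6.71 in Thy1- cells and 6.97 ± 4.62 in Thy1hi cells (n = 4 each). It had 18.6 ± 9.28 in DETCs (n = 5) and 9.28 ± 10.4 in YFP+ cells (n = 3). No window of 100 bases was shared between the transcripts of *Cep295nl* and *Timp2*. HFSC replicate 4, with the lowest *Timp2* of the HFSCs, had their highest *Cep295nl* (119) and melanocyte marker sum (996).

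*Timp3* (chromosome 10 from 86300372 to 86349506), the inhibitor that is bound to the matrix and that blocks ADAM17 as well as MMPs, was present in every population. The Thy1- cells had the highest mean, 831 ± 248 (n = 4), with 548, 709, 1093 and 974 per library, against 414, 399, 520.24 and 626 in Thy1hi cells. The Thy1hi value was the lower in 4 of 4 same-numbered pairs, although the populations overlapped (log2 difference -0.74, SE 0.31). HFSCs had 488, 795, 695 and 312.5, DETCs ran from 226 to 512, and YFP+ cells had 269, 481 and 232.8. Each population overlapped the next in order. *Syn3* runs across *Timp3* on the opposite strand, and 20.3% of the windows of 100 bases of *Timp3* lay in its transcripts. *Syn3* itself had at most 14.1 ± 8.17 on average, in Thy1- cells. *Syn1*, which spans *Timp1* on the opposite strand, had 17.7 ± 14.8 (n = 5) in DETCs, at most 3.63 in the other populations on average, and no shared window. Its DETC mean leaned on replicate a, at 43.91, with the other DETC libraries from 9.15 to 13.44.

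**Figure D2:**
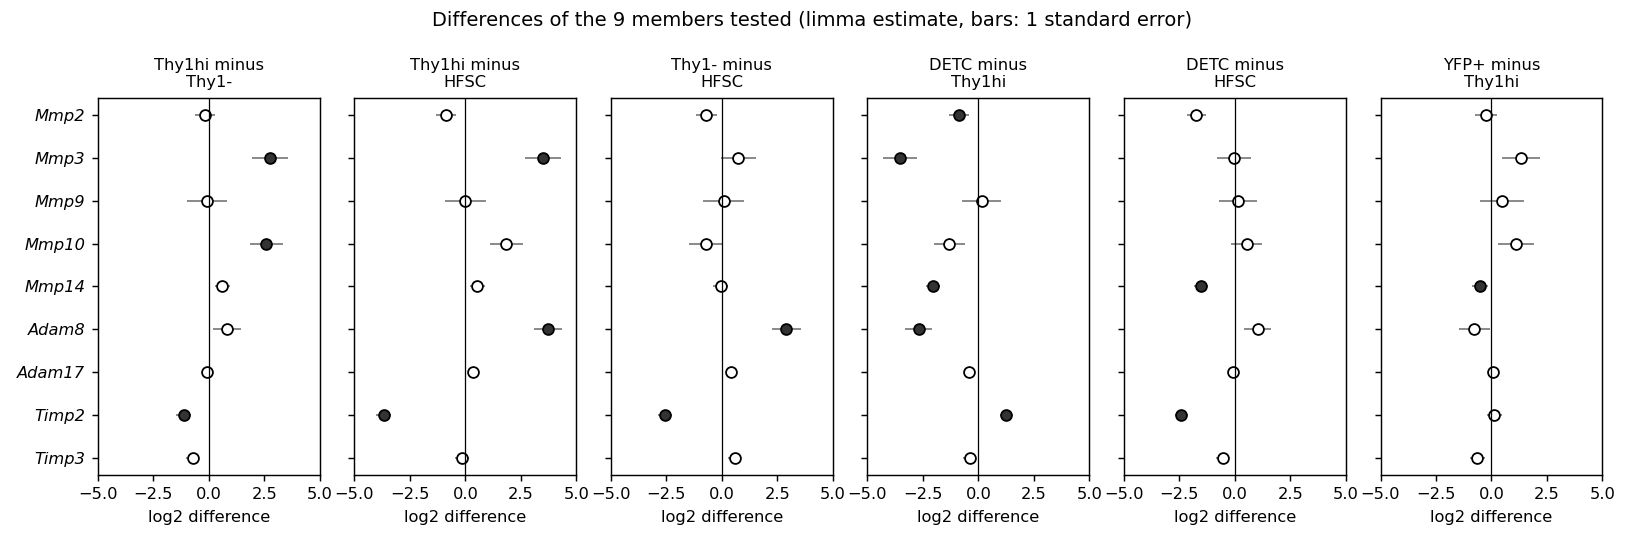
The log2 differences (limma, horizontal axes) of the 9 genes tested in the 6 comparisons, with bars of 1 standard error; filled points have libraries that do not overlap between the 2 populations. *Timp2* is filled in 5 of the 6 comparisons, from -3.68 to 1.27, and *Adam17* in none.

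In counts, the fit called none of the 9 tested genes between Thy1hi and Thy1- cells, where 0.116% of the 17204 genes tested were called higher and 0.221% lower. Libraries did not overlap for 3 of the 9 and for 6.77% of all genes tested. At an unadjusted p under 0.05, limma had 2 higher and 2 lower, beside 626 and 616 of all genes, and edgeR had the same 2 numbers beside 650 and 595. After adjustment edgeR called none (14 and 30 of all genes), and DESeq2 called 1 higher and 1 lower (100 and 110 of all genes) but gave no adjusted p for 1 of the 9. Same-numbered libraries of these 2 populations deviated together, and with the replicate number as a block 4 of the 9 were called higher (*Mmp3*, *Mmp10*, *Mmp14* and *Adam8*) and 2 lower (*Timp2* and *Timp3*), beside 3.42% and 3.19% of all genes. Against HFSCs, 2 were called higher and 1 lower in Thy1hi cells (6.51% and 6.86% of all genes), and 1 each in Thy1- cells (2.56% and 3.52%). The call of *Mmp3* in Thy1hi cells was lost with a pseudocount of 0.1, and that of *Adam8* in Thy1- cells with the 2 populations alone in the fit. In DETCs, 1 was higher and 3 were lower than in Thy1hi cells (19.9% and 16.6%). Against HFSCs, DETCs had 3 lower and none higher by limma (21.2% of all genes higher and 18.5% lower). With the replicate block 1 was higher (*Adam8*) and 4 were lower (*Mmp2*, *Mmp14*, *Timp2* and *Timp3*), beside 22.6% and 19.6% of all genes. The replicate numbers were not shown to pair these DETC and HFSC libraries. None was called between YFP+ and Thy1hi cells, where 2 of all genes were higher (0.0116%) and 0% lower. None of the 9 had an unadjusted p under 0.05 in limma, beside 761 higher and 800 lower of all genes. After adjustment edgeR called none of the 9 (2 and 0 of all genes), and neither did DESeq2 (59 and 43 of all genes). DESeq2 gave no adjusted p for 1 of the 9, *Mmp10*. Both tools had 1 of the 9 higher at an unadjusted p under 0.05. Of all genes, 857 were higher and 777 lower by that measure in edgeR, and 931 and 959 in DESeq2. The genes were chosen from these libraries, so nothing is read from these counts.

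Within a library, the level of a protease per kb can be set against that of its inhibitor. For *Mmp14* and *Timp2*, whose products form a complex on the cell surface, the ratio was 6.55 to 10.1 in Thy1hi libraries, 3.48 to 9.21 in YFP+, 1.53 to 5.80 in Thy1-, 0.523 to 1.17 in DETC and 0.318 to 0.588 in HFSC libraries. The Thy1hi and Thy1- libraries did not overlap, and neither did Thy1- cells and HFSCs. *Mmp2* to *Timp2* took the same order by medians, from 2.21 in Thy1hi cells to 0.327 in HFSCs. *Adam17* to *Timp3* overlapped between all populations, with medians from 0.75 in HFSCs to 1.97 in YFP+ cells. Summed over the family, the 5 MMPs stood to the 3 TIMPs as 2.40 to 3.78 in Thy1hi libraries, 2.52 to 8.07 in YFP+, 0.676 to 1.66 in Thy1-, 0.444 to 0.937 in DETC and 0.497 to 0.764 in HFSC libraries. All Thy1hi and YFP+ libraries lay above all others. These are ratios of RNA, which the choice of genes fixes in part.

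**Figure D3:**
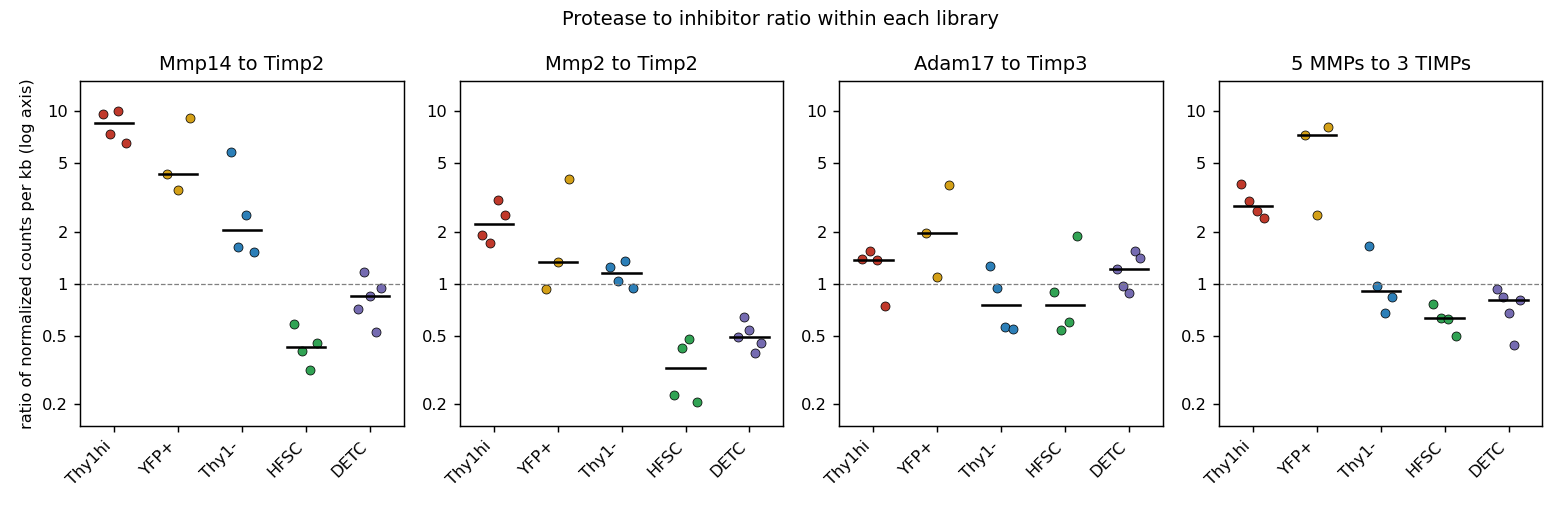
Ratio of protease to inhibitor, in normalized counts per kb of exon on a log axis, for 3 pairs of genes and for the sums over the 5 MMPs and 3 TIMPs; each point is a library, bars are medians, and the dashed line is a ratio of 1. For *Mmp14* to *Timp2*, Thy1hi libraries lie between 6.55 and 10.1 and HFSC libraries between 0.318 and 0.588.

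The make-up of the TIMPs was nearly constant within HFSCs. There, *Timp2* held 72.4% to 73.8% of the summed TIMP level per kb, also in replicate 4. It held 15.2% to 21.1% in Thy1hi, 16.8% to 29.2% in Thy1-, 25.1% to 32.4% in YFP+ and 36.4% to 51.0% in DETC libraries. *Timp3* made up most of the rest, with means of 78.9% in Thy1hi and 75.0% in Thy1- cells. Of the summed level per kb of the 5 MMPs chosen here, which leaves out *Mmp28* at 87.8 per kb in Thy1hi cells, *Mmp3* held 22.0% to 34.7% in Thy1hi cells and 3.52% to 10.3% in Thy1- cells, and *Mmp14* 46.9% to 57.9% and 48.1% to 73.0%.

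**Figure D4:**
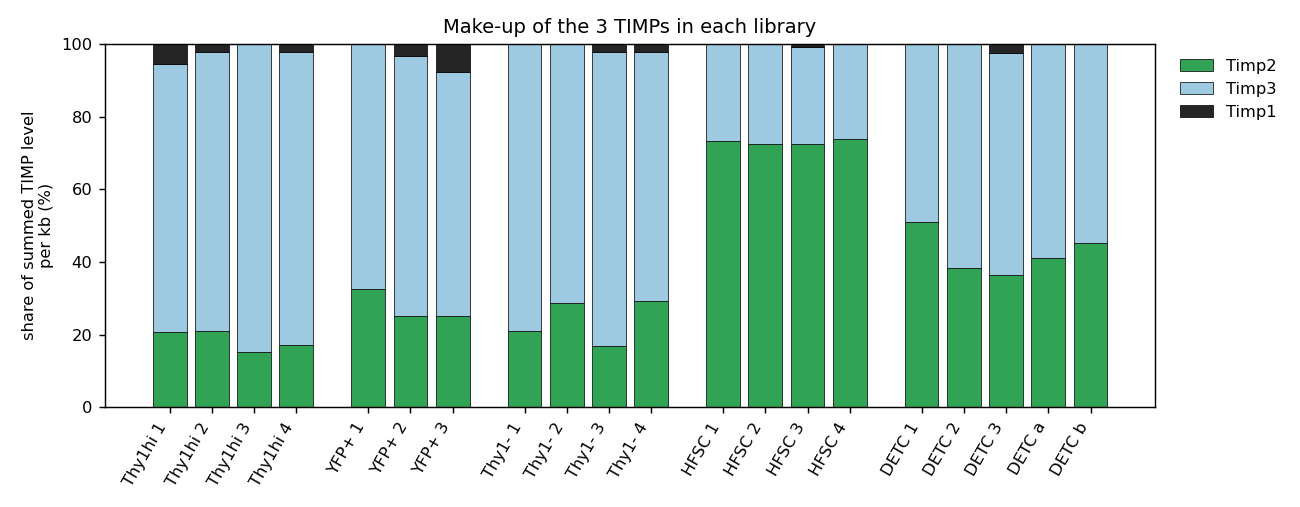
Share of *Timp1*, *Timp2* and *Timp3* in their summed level per kb of exon (vertical axis, %) in each of the 20 libraries, 1 bar per library. *Timp2* holds 72.4% to 73.8% in the HFSC libraries and at most 51.0% elsewhere; the *Timp1* part rests on at most 4 reads in a library.

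Across the 20 libraries, which share populations and differ in depth, *Mmp3* and *Mmp10* had the highest correlation among the tested members (Pearson r 0.830 of log2 values), and *Adam8* and *Timp2* the lowest (-0.669). Among 9803 genes with a mean of at least 50, those whose pattern was most like that of *Mmp14* were *Fgfr2* (r 0.964) and *Col17a1* (0.962), and for *Timp2* they were *Grem1* (0.957) and *Mn1* (0.948). *Adam8* was most like *Rtn4* (0.951) and *2610035D17Rik* (0.946), and *Mmp3* most like *Hmgn2* (0.924) and *Mcm5* (0.922). For *Adam17* they were *Mtmr10* (0.916) and *Gm44667* (0.898), for *Mmp2* *Pmm1* (0.873) and *Gas1* (0.841), and for *Timp3* *Egr2* (0.873) and *Svil* (0.852). *Mmp10* had *Mmp3* and *Cdkn2aipnl* (0.806), and *Mmp9* had *Zfpm1* (0.784) and *Csf2rb* (0.755). These r values are a description over libraries and carry no test.

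The rest of the family was taken whole by name and tested, although the family itself was chosen with results of these libraries known, so these p-values are not independent of that choice. It comprised 71 further genes of the table, of which 34 passed the filter: 9 MMPs, 9 ADAMs, 15 ADAMTS proteases and 1 inhibitor, *Reck*. Differences were called at an adjusted p under 0.05 (limma, Benjamini-Hochberg over 17204 genes). Between Thy1hi and Thy1- cells 1 gene passed, beside 0.116% of all genes higher and 0.221% lower. *Adamts9*, a protease of the proteoglycan versican, had 52.3 normalized counts on average in Thy1hi and 178 in Thy1- cells (log2 difference -1.95, SE 0.37, limma adjusted p 0.0259), with no overlap. This call held in only 2 of the 8 fits that left out 1 library (adjusted p 0.00381 to 0.157) and was stronger with the replicate block (adjusted p 0.00197). The block also called *Mmp28* and *Adamts14* higher and *Adamts1* lower in Thy1hi cells (adjusted p 0.0144, 0.0017 and 0.0361), with log2 differences of 0.71, 0.96 and -0.52. It called 3.42% of all genes higher and 3.19% lower. The median log2 difference of the 34 was -0.11, beside -0.02 over all genes.

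Against HFSCs, 2 of the 34 were higher and 5 lower in Thy1hi cells, beside 6.51% and 6.86% of all genes. *Mmp28* (epilysin), an MMP of keratinocytes, had 340 on average in Thy1hi cells, 211 in Thy1- cells and 71 in HFSCs, so that both populations were higher (2.34, SE 0.38, limma adjusted p 0.000253, and 1.63, SE 0.38, adjusted p 0.0121). The second of these reached 0.0525 without HFSC replicate 3. *Adamts14*, which trims the amino end of fibrillar procollagen, was 2.27 (SE 0.48) higher in Thy1hi cells (763 against 173, adjusted p 0.00286, 0.00369 to 0.0116 without 1 library). Lower in Thy1hi cells were *Adamts19*, *Adamts10*, *Adamts7* and *Adamts9* without overlap, and *Adamts3* with it. *Adamts19* had 100 in HFSCs against 6.97 in Thy1hi and 10.1 in Thy1- cells (-3.63 and -3.61, SE 0.88 each, adjusted p 0.00836 and 0.0176), and was the only other call among the 34 in Thy1- cells, where it was -2.67 without Thy1- replicate 4. *Adamts10* (-2.07, SE 0.65, adjusted p 0.0376) and *Adamts7* (-1.87, SE 0.61, adjusted p 0.0468) passed in 2 of 8 fits without a library, up to 0.0967 and 0.136. In Thy1hi cells the 9 further MMPs had a median log2 difference of 1.60 against HFSCs and of 0.38 against Thy1- cells, and the 15 ADAMTS genes of -0.70 and -0.52, beside 0.02 and -0.02 over all genes.

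In DETCs, against Thy1hi cells 5 of the 34 were higher and 2 lower, beside 19.9% and 16.6% of all genes. Against HFSCs 7 were higher and 4 lower, beside 21.2% and 18.5% of all genes. With the replicate block 8 were higher and 5 lower, beside 22.6% and 19.6%. *Adamts10*, which associates with fibrillin microfibrils, had 479 in DETCs, 9.98 in Thy1hi cells and 44.3 in HFSCs (5.43, SE 0.61, limma adjusted p 5.68e-07, and 3.36, SE 0.61, adjusted p 0.00019). *Adamts6* had 64.8 against 7.01 and 12 (3.09 and 2.39, adjusted p 1.09e-05 and 0.000199). *Adam19*, *Adam9* and *Adam15*, membrane-bound ADAMs, had 194, 1315 and 799 in DETCs against 47.2, 352 and 235 in Thy1hi cells, with log2 differences of 2.08, 1.77 and 1.71 (adjusted p 1.07e-05, 9.75e-06 and 6.66e-07), and were called higher than in HFSCs too. *Mmp28* and *Adamts14* were the 2 lower than in Thy1hi cells (-2.52 and -2.59, adjusted p 1.13e-05 and 0.000117). Lower than in HFSCs without overlap were *Adamts3* (-3.41, adjusted p 0.00451), *Adamts19* (-3.04, adjusted p 0.00663) and *Adamts9* (-1.09, adjusted p 0.0172). *Adamts9* reached an adjusted p of 0.0607 when 1 library was left out. Both contrasts share the DETC libraries.

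**Figure D5:**
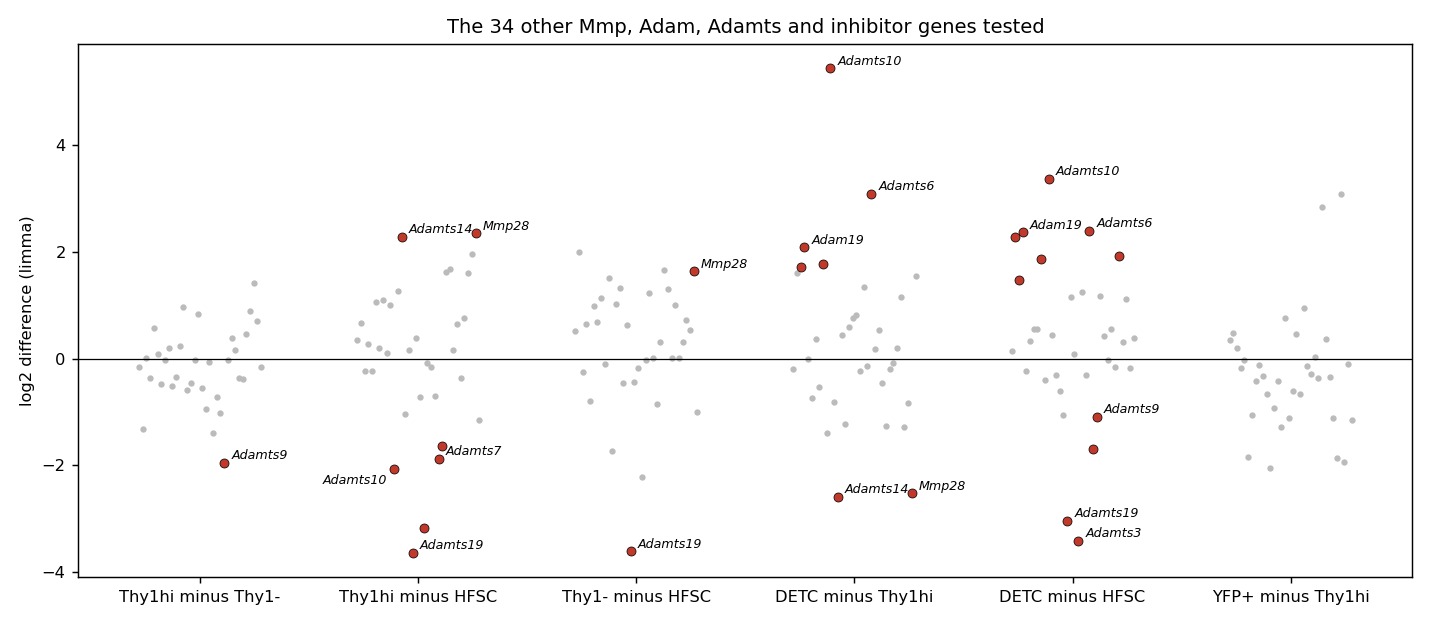
The log2 differences (limma, vertical axis) of the 34 further family genes tested, 1 point per gene in each of the 6 comparisons; red points have an adjusted p under 0.05, grey points do not, and names mark the called genes with the largest changes without overlap. DETCs hold the largest rise, *Adamts10* at 5.43, and no point is red for YFP+ against Thy1hi cells.

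Between YFP+ and Thy1hi cells, limma called none of the 34. At an unadjusted p under 0.05 it had 2 higher and 5 lower, beside 761 and 800 of all genes. EdgeR and DESeq2 called none of the 34 either, although DESeq2 gave no adjusted p for 16 of them, *Mmp13* and *Mmp1b* included. With a pseudocount of 10 in place of 1, limma called 2 of them, *Mmp13* and *Mmp1b*, both higher in YFP+ cells (log2 differences 2.01 and 1.69). The share of all genes called at that setting is not given here. *Mmp1b* reached the 10 of the filter only in the YFP+ libraries and in Thy1hi replicate 2, so the filter favours the population in which it is high. The run of 10 MMP genes around *Mmp3* and *Mmp10*, between 7272514 and 7699585 on chromosome 9, is described here because its values were seen to be high in YFP+ cells. *Mmp13*, a collagenase, had 78.8, 55.7 and 70.4 in YFP+ libraries against 11.0, 17.1, 8.94 and 2.91 in Thy1hi libraries, and at most 19.7 in any other. *Mmp1b* had 59.8, 18.6 and 45.6 against 0, 11.9, 7.32 and 2.91, and *Mmp1a*, which did not pass the filter, had 6.98, 4.64 and 17.8 against at most 1.32. The YFP+ libraries of these 3 genes lay above all Thy1hi libraries. For *Mmp13* and *Mmp1b* the log2 differences were 2.84 (SE 0.98) and 3.08 (SE 0.87), the latter 2.35 without Thy1hi replicate 1, given as a description, since these values chose the genes. *Mmp12*, beside them, did not share this: it ran from 12.9 to 38.7 in YFP+ and from 4.85 to 130 in Thy1hi libraries, and its end overlaps that of *Mmp1b* by position. *Mmp8*, *Mmp27*, *Mmp20* and *Mmp7* had means of at most 3.92 in every population.

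The enzymes and membrane proteins that activate, anchor or escort these proteases formed a list of 20 genes, 18 of them tested. Between Thy1hi and Thy1- cells none was called by limma, edgeR or DESeq2. At an unadjusted p under 0.05 in limma 2 were lower, beside 616 of all genes. The replicate block called *Rhbdf2* lower (330 against 552, log2 difference -0.73, block adjusted p 0.00341), beside 3.19% of all genes. In Thy1hi cells 3 were higher than in HFSCs and none lower, beside 6.51% and 6.86% of all genes: *Cd44*, a hyaluronan receptor that docks MMPs at the surface (7553 against 3223, log2 difference 1.27, SE 0.26, limma adjusted p 0.00268), *Plau*, the urokinase (225 against 101, 1.16, adjusted p 0.0334), and *Tspan5*, a tetraspanin of ADAM10 (481 against 320, 0.63, adjusted p 0.0476). The calls of *Plau* and *Tspan5* were lost when 1 library was left out (adjusted p up to 0.0903 and 0.152). *Tspan5* was higher in Thy1- cells than in HFSCs as well (608, 0.97, adjusted p 0.00709), and the second gene called there, *St14* (matriptase), overlapped. DETCs had 7 higher and 4 lower than Thy1hi cells (19.9% and 16.6% of all genes). *Plaur*, the urokinase receptor, had 335 in DETCs against 31.8, and *Furin*, which cleaves the precursors of MMP14 and of ADAMs, 3201 against 970 (3.34 and 1.67, adjusted p 0.000163 and 7.93e-05). The iRhoms, which carry ADAM17 to the surface, moved in opposite directions in DETCs: *Rhbdf2* was higher (727 against 330, 1.13, adjusted p 0.000251) and *Rhbdf1* lower (278 against 597, -1.20, adjusted p 0.000363). *Plau* (-1.57) and *Bsg* (-0.88), an inducer of MMPs, were also lower (adjusted p 0.000869 and 0.00179). Against HFSCs, 9 were higher in DETCs and 4 lower (21.2% and 18.5% of all genes). With the replicate block 6 were higher and 7 lower (22.6% and 19.6% of all genes). With the 2 populations alone in the fit 8 were higher and 1 lower (3353 and 2348 of all genes). In the fit of all libraries *Plaur*, *Furin* and *St14* led at 4.41, 2.37 and 1.72 (limma adjusted p 6.32e-06, 1.1e-06 and 0.000143). There, *Tspan17* (-2.21) and *Rhbdf1* (-0.78) were lower (limma adjusted p 0.00531 and 0.0114). *Plaur* was 3.54 higher without HFSC replicate 4, and *Tspan17* was at -1.61 without DETC replicate a.

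Of 16 proteins that ADAM17 sheds, 15 were tested, and 5 were higher in Thy1hi cells than in HFSCs, with none lower (6.51% and 6.86% of all genes). With the 2 populations alone in the fit 2 were higher, beside 861 of all genes. The 5 called with all libraries in the fit included *Epgn* and *Tgfa*, ligands of the EGF receptor (894 against 186 and 241 against 95.6). Their log2 differences were 2.80 (SE 0.63) and 1.59 (SE 0.43), with limma adjusted p of 0.00493 and 0.0158. *Icam1*, an adhesion protein, was also among the 5 (1614 against 503, 2.10, limma adjusted p 0.00675). Without HFSC replicate 4, *Epgn* and *Icam1* were 1.84 and 1.33 higher. *Icam1* was the 1 called in Thy1- cells against HFSCs (1321, 1.83, adjusted p 0.0312, and 1.06 without HFSC replicate 4, with an adjusted p of up to 0.0909 without 1 library). In DETCs 3 were higher and 8 lower than in Thy1hi cells (19.9% and 16.6% of all genes). The higher were the receptor *Tnfrsf1b*, *Areg* and *Tnf* (5303 against 58.7, 2676 against 156 and 338 against 43.2, with log2 differences of 6.49, 3.996 and 3.01 and adjusted p of 1.73e-07, 8.07e-07 and 0.000441). *Epgn*, *Hbegf* and *Tgfa* were lower (-2.42, -1.87 and -1.62, adjusted p 0.00303, 0.0471 and 0.00314), and *Hbegf* reached 0.138 without 1 library. *Ereg*, a further ligand of the EGF receptor on the list, had 336 against 167 and was not called (0.77, SE 0.76, adjusted p 0.485). Against HFSCs, *Tnfrsf1b*, *Tnf* and *Areg* were higher again (7.13, 4.96 and 4.69, adjusted p 4.76e-08, 1.35e-06 and 9.13e-08, and 5.94, 4.07 and 3.999 without HFSC replicate 4). *Csf1* was lower (-0.91, adjusted p 0.0178), among 4 higher and 5 lower (21.2% and 18.5% of all genes). With the block 4 were higher and 9 lower, beside 22.6% and 19.6% of all genes. No gene of this list passed between Thy1hi and Thy1- cells by limma, edgeR or DESeq2, and none had an unadjusted p under 0.05. With the replicate block 2 were higher and 1 lower, beside 3.42% and 3.19% of all genes. The former were *Epgn* (894 against 487) and *Hbegf* (716 against 486; block adjusted p 0.00332 and 0.0424) and the latter *Ereg* (167 against 460, block adjusted p 0.00741). The median of the 15 was 0.64 in Thy1hi and 0.71 in Thy1- cells against HFSCs, beside 0.02 and 0.04 over all genes.

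The 14 basement membrane proteins that MMPs can cut were all tested. Between Thy1hi and Thy1- cells none was called by limma, edgeR or DESeq2, although 8 did not overlap (6.77% of all genes). In limma 6 had an unadjusted p under 0.05, all higher, beside 626 higher and 616 lower of all genes. With the replicate block 7 were called higher in Thy1hi cells and none lower, beside 3.42% and 3.19% of all genes. Among them were *Col7a1* of the anchoring fibrils (3669 against 2128, block adjusted p 0.00278) and the laminin chains *Lama3* and *Lamb3* (3667 against 2252 and 3146 against 2002, block adjusted p 0.00257 and 0.00344). The median of the 14 was 0.47, beside -0.02 over all genes, and the 7 basal keratinocyte markers, of which *Col17a1* is on both lists, had a median of 0.81. Against HFSCs, *Lamc1* was higher (0.64, adjusted p 0.0412) and *Col4a1* lower (-1.16, adjusted p 0.0381) among 2 higher and 2 lower (6.51% and 6.86% of all genes), and both of these calls were lost without 1 library (adjusted p up to 0.131 and 0.128). In Thy1- cells *Lamb1* was lower than in HFSCs (30.5 against 104, -1.69, limma adjusted p 0.00251), the 1 call there (3.52% of all genes lower). EdgeR called 3 lower there and DESeq2 4, beside 826 and 1309 of all genes lower, against 606 in limma. DETCs had 7 lower and 1 higher than Thy1hi cells (16.6% and 19.9% of all genes), and 10 lower and 1 higher than HFSCs (18.5% and 21.2%). The exception was *Nid2*, with 654 in DETCs against 5.56 and 3.25 (6.49 and 7.46). *Nid2* reached the 10 of the filter only in DETC libraries, with at most 9.73 elsewhere. The filter thus favours the population in which it is high, and its differences are given as a description. *Col17a1* and *Lama3* were among the lower ones against Thy1hi cells (-2.41 and -2.32, adjusted p 2.91e-05 and 6.1e-07), and *Col7a1*, *Col17a1* and *Lama3* led them against HFSCs (-2.07, -1.89 and -1.74, adjusted p 9.09e-06, 0.000399 and 2.48e-05). Between YFP+ and Thy1hi cells none of the genes on these 3 lists was called by limma, edgeR or DESeq2. At an unadjusted p under 0.05 in limma 2 were higher and 3 lower, beside 761 and 800 of all genes.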

How the data were processed

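Cells sorted by FACS from mouse dorsal skin were profiled by RNA-seq in 20 libraries of 5 populations. The authors aligned single reads of 100 cycles to mm10 with STAR, counted them per Ensembl gene with featureCounts and normalized them with DESeq2 (tools and build as in the submitters' processing notes and the study's methods; the versions of STAR and featureCounts and the strand setting are not given in the sources used here). The deposited values are a signal per gene, normalized counts rounded to 2 decimals, and not raw counts. Library kits differed between samples in a way the labels do not assign. Multiplied by 1 factor per library, 100% of the values gave whole reads, in that the nearest whole read gave back the value to within 0.0051 plus a share of 1e-06 of it. In the column of Thy1- replicate 4, 3212 genes stood in the order that names take when hyphens are ignored. The order was put back, which raised r with the other Thy1- libraries at those genes from 0.0563 to 0.935 and moved none of the 10 members. Every library column was used. Names of 2 DETC columns match no title, and these libraries are called a and b.

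Differences were fitted with limma 3.58.1 (trend, two-sided) in R 4.3.3 on log2(value + 1), with all 20 libraries in one fit and a mean per population, over the 17204 genes with at least 10 in at least 3 libraries. The p-values were adjusted by Benjamini-Hochberg with a threshold of 0.05. They measure the spread between libraries. Members and gene lists were chosen with earlier results of these data known. Named beside the 10 members were, per comparison, up to 3 risen and 3 fallen genes among the other family genes and in the lists (called, no overlap of libraries, ranked by size of change), the 2 genes most like each member, and genes that overlap members. *Adam9*, *Adam15* and the MMP run on chromosome 9 were added after their values were seen. The values of 1 gene that the rule names are not reported here. Levels were compared between genes per kb of exon (GENCODE vM21). Intervals cover counting error only, since reads had no molecular identifiers.

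The rule for a block was that r of deviations exceeds 0.1 in every same-numbered pair, and 2 comparisons met it. For Thy1hi and Thy1- libraries r was 0.293 to 0.716 in 4 same-numbered pairs and -0.651 to 0.514 otherwise. For DETCs and HFSCs it was 0.17 to 0.333 in 3 pairs and -0.25 to 0.371 otherwise. There the highest r of unmatched libraries exceeded every same-numbered pair, so pairing was not shown. No label ties equal numbers to shared mice, and same-numbered libraries carry different ages. The blocked fit holds only the 2 populations and the libraries with shared numbers. Alternatives were pseudocounts (0.1 or 10), a test of unfiltered genes or of genes averaging 50 or more, equal library totals, quantile normalization, edgeR 4.0.16 and DESeq2 1.42.0 on the recovered reads, the 2 populations alone, the deposited row order and leaving out each library. Scripts were tested on simulated data. Python 3.11.15 with numpy 2.4.6, pandas 2.3.3, scipy 1.17.1 and matplotlib 3.10.9 was used.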

Additional observations from a re-analysis of the deposited data

Results flagged for a closer look

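In 7 of the 40 groups of 4 or 5 libraries looked at, 1 library lay far from the others by Dixon's criterion. Its chance rate of about 1 in 20 groups does not hold for genes with a few reads. There, a lone library above 0 is always flagged, so the 7 are not set against that rate. *Mmp9* reached 43.48 in DETC replicate 3, with 17.29 as the next value. *Adam17* reached 522 in HFSC replicate 4, the library with the low share of *Rn45s* reads, against 384.38 in the next. *Timp2* was lowest in DETC replicate a, at 75.46 against 138.3. The others rest on a few reads each. *Mmp10* was at 6.93 in HFSC replicate 1 (next 1.07) and at 1.16 in Thy1- replicate 2 (next 0), and *Timp1* was at 2.14 in HFSC replicate 3 and at 2.37 in DETC replicate 3 (next 0 in both). The cause was not tested.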

How the results depend on the processing

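Of 1023 values of the 54 differences of members under the alternatives, 1014 stayed within the spread of the main value, 9 moved and 0 reversed a called difference. A sign changed under at least 1 alternative in 15 differences, none of them among the 20 of at least 1 in size. Rescaling to the same total moved the median of all genes to -0.14 for Thy1hi against Thy1- cells, 0.11 for Thy1hi cells against HFSCs and 0.25 for Thy1- cells against HFSCs, and quantile normalization to -0.20 and -0.15 for DETCs against Thy1hi cells and HFSCs.

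For the count of other family genes called, the values that moved by over 1.5 times were as follows, with the range without 1 library, and the cause was not tested except where fewer genes or libraries entered. For Thy1hi against Thy1- cells the main count of 1 became 0 with edgeR and with the 2 populations alone, 4 with the replicate block, and 0 to 1 without 1 library. For Thy1hi cells against HFSCs, 7 became 4 with a pseudocount of 0.1, without the filter and with a mean of at least 50, and 4 to 7 without 1 library. For Thy1- cells against HFSCs, 2 became 1 with a mean of at least 50 and with the replicate block, 5 with DESeq2, and 1 to 2 without 1 library. For DETCs against Thy1hi cells, 7 became 11 with the replicate block and 7 to 10 without 1 library. For DETCs against HFSCs, 11 became 5 with a mean of at least 50, and 10 to 11 without 1 library. For YFP+ against Thy1hi cells, 0 became 2 with a pseudocount of 10. The filter on a mean of 50 left no value for *Mmp9* and *Mmp10*. Same-numbered libraries did not pair in the comparisons other than the 2 that met the rule, so the block there reflects a number only. For DETCs against HFSCs the rule was met, but pairing was not shown, and that block may reflect a number only as well. Over all genes the fit of the 2 populations called 653 higher and 716 lower with the block and 861 and 977 without it in Thy1hi cells against HFSCs, and 76 and 253 with it and 189 and 451 without it in Thy1- cells against HFSCs. Against HFSCs, the 5 higher ADAM17 substrates of Thy1hi cells became 2 with the 2 populations alone and 3 with the block, and the 2 higher and 2 lower basement membrane genes became 2 and 0 and 1 and 0, while edgeR called 1 and 3. In Thy1- cells the 1 substrate became 0 with edgeR, the block or the 2 populations alone and 2 with DESeq2, the 2 activators 0 with the block, 1 with the 2 populations alone and 3 with DESeq2, and the 1 basement membrane gene 0 with the block. The cause was not tested. DESeq2 gave no adjusted p for 14 of the 34 other family genes between Thy1hi and Thy1- cells. Low counts limit *Timp1* and *Mmp10*, and the age, batch and number of mice per library limit every comparison.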
